A study of Homo sapiens with 6 samples.

Results

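The Notch genes described here were taken by symbol from a list of 10, and all 10 were among the 15024 genes of the table. They encode the ligands JAG1 and JAG2, the receptors NOTCH1, NOTCH2 and NOTCH3, the glycosyltransferase LFNG, the DNA-binding protein RBPJ, and the transcriptional repressors HES1, HES4 and HEY1. RNA came from MDA-MB-231, a widely used triple-negative breast cancer cell line of largely mesenchymal phenotype. Before the sort, all cells, labelled sgNT and called wild type in the design text, received 10 µM forskolin, an activator of adenylyl cyclase, for 14 days. CD44+ cells were then sorted on CD104, the integrin beta 4 subunit, into a CD104high group (3 libraries), named hybrid in the design text, and a CD104-/low group (3 libraries, CD104low here), named mesenchymal there. Both groups therefore share the line, the guide label and the drug, and MLL3-mutant or untreated cells were not analysed here.

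Notch signalling passes between touching cells. A Jagged or Delta ligand on one cell binds a Notch receptor on its neighbour, and the pull of the ligand, which ubiquitin ligases such as the Mind bomb and Neuralized proteins prepare for endocytosis, opens the receptor to cleavage by ADAM10 and then by gamma-secretase. The freed intracellular domain joins RBPJ and a Mastermind-like protein on DNA and turns on genes such as those of the HES and HEY families. Fringe enzymes, among them LFNG, extend the O-fucose that POFUT1 places on the receptor and shift its preference between Delta and Jagged ligands. In breast epithelium and breast cancer the pathway is known for its part in cell fate and in the epithelial-mesenchymal transition.

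The 3 upstream windows are shown because HES1 and HES4 are targets whose promoters hold the letters that RBPJ recognises, and because JAG2 is the gene among the 10 with the smallest p in the comparison. They are the 250 bases before the annotated start in RefSeq (GRCh38.p14), each read 5′ to 3′ on the strand of its gene, with every TGGGAA or its reverse complement TTCCCA in capitals. HES1 lies on the plus strand (chr3:194135898-194136147), HES4 on the minus strand (chr1:1000098-1000347) and JAG2 on the minus strand (chr14:105168777-105169026).
HES1: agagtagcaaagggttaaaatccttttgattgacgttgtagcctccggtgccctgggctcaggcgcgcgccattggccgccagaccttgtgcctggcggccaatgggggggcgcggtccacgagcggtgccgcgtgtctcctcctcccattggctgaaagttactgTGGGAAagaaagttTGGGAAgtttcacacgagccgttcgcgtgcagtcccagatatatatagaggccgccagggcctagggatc
HES4: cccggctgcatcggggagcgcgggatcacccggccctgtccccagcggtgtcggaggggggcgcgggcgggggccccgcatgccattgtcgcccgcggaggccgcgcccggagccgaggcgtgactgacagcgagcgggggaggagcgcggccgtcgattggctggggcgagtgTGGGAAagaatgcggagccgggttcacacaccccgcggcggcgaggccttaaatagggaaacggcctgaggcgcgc
JAG2: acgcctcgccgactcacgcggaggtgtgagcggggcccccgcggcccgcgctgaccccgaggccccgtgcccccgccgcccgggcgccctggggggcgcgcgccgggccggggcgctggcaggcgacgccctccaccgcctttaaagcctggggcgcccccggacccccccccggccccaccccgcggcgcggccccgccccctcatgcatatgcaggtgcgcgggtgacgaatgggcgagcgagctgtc

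The HES1 window holds TGGGAA at 84 and 70 bases before the start, and the HES4 window at 76 bases before the start, all on the strand of the gene. One site in each has the longer form GTGGGAA. The JAG2 window holds no match on either strand. Windows, 14 in all, were found for 9 of the 10 genes, all but HEY1, and RBPJ and LFNG had more than 1. TGGGAA on either strand was present in at least 1 window of 4 of the 9 genes (HES1, HES4, LFNG and RBPJ). The longer GTGGGAA was present in 3 genes (HES1, HES4 and RBPJ). Both forms occur widely: 20.8% of all 35116 windows hold TGGGAA and 5.43% hold GTGGGAA on either strand. These shares count windows and the counts above count genes, so they are not directly comparable. A match describes these letters and not binding.

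The libraries held between 52088604 and 56958065 gene reads, as recovered from the deposited values. The sort marker ITGB4 averaged 17659 ± 1766 normalised reads in CD104high and 3079 ± 743 in CD104low libraries (SD, n = 3 each), and KMT2C, the MLL3 gene of the study's title, 3984 ± 357 in CD104high and 3938 ± 563 in CD104low. All 5 markers chosen for the line (VIM, CD44, EGFR, KRT18 and MKI67) were at 10471 normalised reads or more in every library, and none was called between the groups. Of 5 luminal and hormone receptor genes, ERBB2 and GATA3 were listed, with summed values from 9999 to 10929 in CD104high and from 8569 to 9396 in CD104low, which do not overlap. ERBB2 had a log2 fold change of 0.20 (limma adjusted p = 0.0501) and GATA3 0.21 (adjusted p = 0.475), and neither passed. Of 8 genes of other cell types, PDGFRB, PECAM1 and DCN were listed. PECAM1 and DCN stayed under 10 normalised reads in every library. PDGFRB ranged from 1276 to 3892, and its log2 fold change was 0.62 (adjusted p = 0.128). The remaining markers were not analysed here, and the lowest value in the table stands for 1 read. The part of PDGFRB, ERBB2 or GATA3 expressing cells in the results was not tested.

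The comparison asks how the Notch pathway genes differ in RNA between CD104high and CD104low cells. JAG2 and LFNG were higher in CD104high, at 2.07-fold and 1.59-fold, and NOTCH1 was lower. JAG1, NOTCH2, NOTCH3, RBPJ, HES1 and HES4 did not pass the test, and HEY1 was too low to enter it. Normalised reads were tested on the log2(value + 1) scale with limma, at a Benjamini-Hochberg adjusted p under 0.05 over 14343 genes. Of the 9 genes that passed the filter on low values, 2 were called higher and 1 lower, where 12.1% of all tested genes were called higher and 11.3% lower. The groups did not overlap for the same 3 genes, 2 above and 1 below, where 19.9% of all tested genes lay wholly above, 21.3% wholly below and 41.2% on either side. The median log2 fold change of the 9 genes was 0.14, and that of all tested genes 0.0089. Values are from bulk RNA, in which more cells that express a gene and more RNA per cell cannot be told apart.

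**Figure D1:**
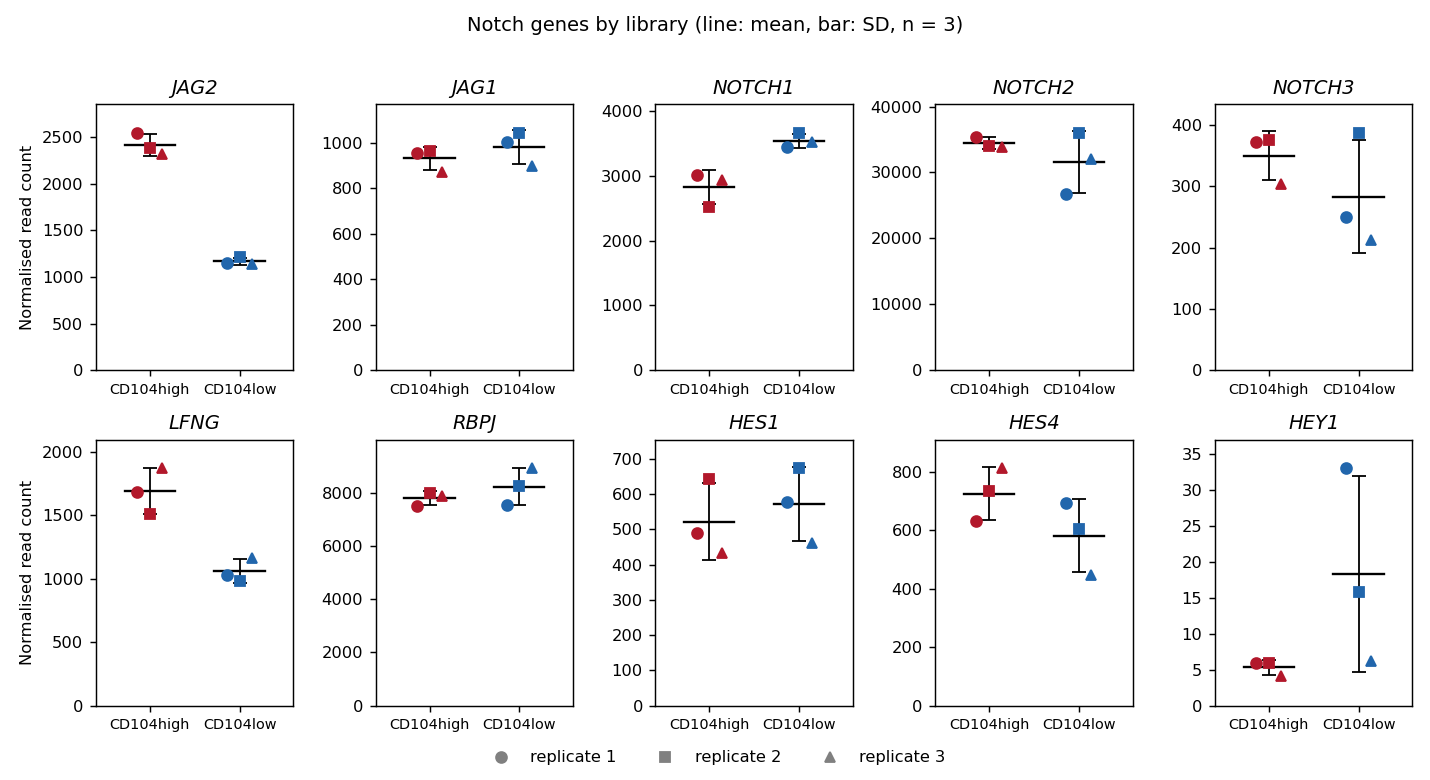
Normalised read counts of the 10 Notch genes in the 3 CD104high (red, left) and 3 CD104low (blue, right) libraries. Points are libraries, with the symbol giving the replicate number, horizontal lines are means and bars are SD. JAG2 and LFNG lie higher in all 3 CD104high libraries, NOTCH1 lies lower in all 3, and HEY1 reaches 33.0 normalised reads at most.

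One Jagged ligand was higher and the other did not pass. JAG2, a ligand of the Jagged class, had 2547, 2387 and 2318 normalised reads in CD104high replicates 1 to 3, against 1155, 1210 and 1140 in CD104low replicates 1 to 3. The lowest CD104high library stood far above the highest CD104low library, and the spread within each group was small beside that gap. The means were 2418 ± 117 in CD104high and 1168 ± 37.0 in CD104low (SD, n = 3 each), with a log2 fold change of 1.05 (SE 0.08, 95% interval 0.87 to 1.22, limma adjusted p = 0.000104). Of all 14343 tested genes, 392 had a log2 fold change at least as high as JAG2. JAG2 (ENSG00000184916.9) spans chromosome 14, 105140981 to 105168824, on the minus strand of GRCh38 in GENCODE release 29. Its call held under all 18 alternatives, and its log2 fold change was 0.87 with the trend on transcript length and GC content removed, the lowest of them.

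JAG1, the other Jagged ligand, had 956, 966 and 875 normalised reads in CD104high, against 1006, 1045 and 901 in CD104low. The groups overlapped, although each CD104high library was a little below the CD104low library of the same number. The log2 fold change was −0.08 (SE 0.10, 95% interval −0.29 to 0.14, limma adjusted p = 0.614), an interval that lies below that of JAG2.

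Scaled to exon length, JAG2 stood above JAG1 in all 6 libraries. JAG2 had 378 ± 18.3 normalised reads per kb of annotated exon in CD104high and 183 ± 5.78 in CD104low, and JAG1 had 100 ± 5.39 per kb in CD104high and 106 ± 7.99 in CD104low (SD, n = 3 each). The ratio of JAG2 to JAG1 per kb was 3.87, 3.59 and 3.85 in the CD104high libraries, against 1.67, 1.68 and 1.84 in the CD104low libraries. The 2 ligands together averaged 478 ± 22.3 per kb in CD104high and 288 ± 13.2 in CD104low. An exact permutation test of the ratio and one of the sum each gave a two-sided p = 0.1, the smallest that 3 against 3 libraries allow (0.129 after adjustment over 9 such measures). Ratio and sum are both built from the JAG2 values above, so they are not results separate from the JAG2 difference.

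The receptors differed in level by far more than they differed between groups. NOTCH2 was the most abundant per length, at 2050 ± 51.1 normalised reads per kb in CD104high and 1878 ± 278 in CD104low. NOTCH1 had 272 ± 25.4 per kb in CD104high and 341 ± 10.5 in CD104low, and NOTCH3 had 37.3 ± 4.29 per kb in CD104high and 30.1 ± 9.80 in CD104low (SD, n = 3 each). NOTCH2 was above NOTCH1, and NOTCH1 above NOTCH3, in every library.

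**Figure D2:**
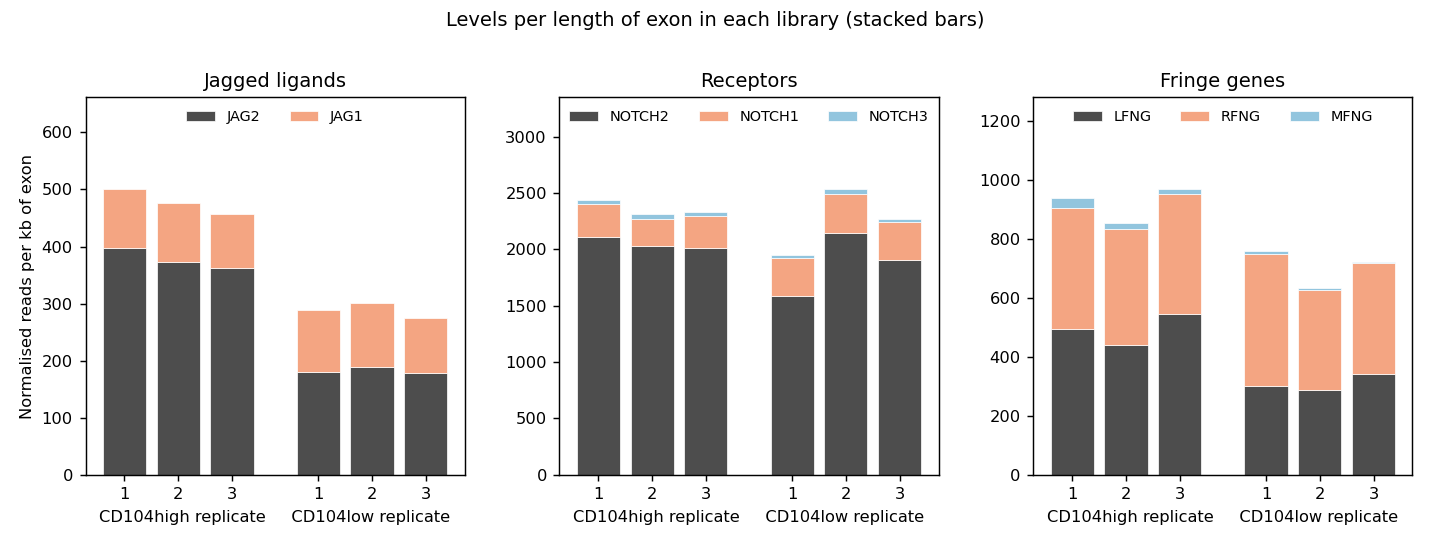
Normalised reads per kb of annotated exon in each library, with replicates 1 to 3 of CD104high on the left and of CD104low on the right, stacked by gene for the Jagged ligands, the Notch receptors and the fringe genes. JAG2 makes up 78.2% to 79.5% of the Jagged bars in CD104high and 62.5% to 64.8% in CD104low, NOTCH2 makes up most of every receptor bar, and MFNG is a thin top layer.

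NOTCH1 had 3017, 2524 and 2932 normalised reads in CD104high, against 3446, 3660 and 3520 in CD104low. The groups did not overlap, and CD104high replicate 2 was the lowest of the 6 libraries. The means were 2824 ± 264 in CD104high and 3542 ± 109 in CD104low (SD, n = 3 each), and NOTCH1 fell by 0.33 on the log2 scale (SE 0.08, limma adjusted p = 0.0179). Its gene (ENSG00000148400.12) spans chromosome 9, 136494433 to 136545786, on the minus strand. The call was lost when CD104high replicate 2 was left out (log2 fold change −0.25, adjusted p = 0.0695), when CD104low replicate 2 was left out (−0.31, at an adjusted p of 0.0619) and in limma without a mean-variance trend (adjusted p = 0.0608). With the trend on length and GC content removed the log2 fold change was −0.51 (adjusted p = 0.00108).

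NOTCH2 had 35430, 34067 and 33844 normalised reads in CD104high, against 26688, 35995 and 32008 in CD104low. CD104low replicate 1 was the lowest library and CD104low replicate 2 the highest, so the groups overlapped. The log2 fold change was 0.14 (SE 0.10, 95% interval −0.09 to 0.36, limma adjusted p = 0.359), and leaving out CD104low replicate 1 put it at 0.02 (adjusted p = 0.859). NOTCH2 has near-identical partial copies, and 2 of them, NOTCH2NLA and NOTCH2NLC, were listed at 37.8 ± 5.42 and 114 ± 11.6 normalised reads in CD104high and 21.7 ± 12.6 and 91.9 ± 19.4 in CD104low (SD, n = 3 each), so the division of reads among these genes is uncertain.

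NOTCH3 had 371, 375 and 304 normalised reads in CD104high, against 249, 387 and 212 in CD104low. CD104low replicate 2 was the highest of the 6 libraries and the other CD104low libraries were the lowest. The log2 fold change was 0.35 (SE 0.21, 95% interval −0.13 to 0.82, limma adjusted p = 0.267). NOTCH3 passed as higher only without CD104low replicate 2 (0.60, adjusted p = 0.045), and in no other of the 18 alternatives.

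As shares of the 3 receptors per length, NOTCH1 made up 11.9%, 10.5% and 12.1% in the CD104high libraries, against 17.1%, 13.9% and 15.0% in the CD104low libraries. The NOTCH2 share ran from 86.5% to 87.7% in CD104high and from 81.6% to 84.5% in CD104low. Neither share overlapped between the groups (exact permutation test, two-sided p = 0.1 for each, 0.129 after adjustment). Both are parts of the same sum, in which NOTCH3 is small, so they are not separate results. NOTCH2 by itself did not pass. The sum of the 3 receptors was 2359 ± 69.3 per kb in CD104high and 2249 ± 295 in CD104low, and overlapped (exact permutation test, p = 0.7, adjusted p = 0.7).

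LFNG, lunatic fringe, had 1686, 1509 and 1871 normalised reads in CD104high, against 1027, 984 and 1165 in CD104low. All 3 CD104high libraries were above all 3 CD104low libraries, and replicate 3 was the highest within both groups. The means were 1688 ± 181 in CD104high and 1059 ± 94.5 in CD104low (SD, n = 3 each), with a log2 fold change of 0.67 (SE 0.11, 95% interval 0.44 to 0.91, limma adjusted p = 0.00224). The gene (ENSG00000106003.13) spans chromosome 7, 2512529 to 2529177, on the plus strand. Its call held under all 18 alternatives, with log2 fold changes from 0.56 to 0.75.

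MFNG (manic fringe) was also higher, though far lower in level. It had 105, 55.6 and 57.6 normalised reads in CD104high, against 27.2, 29.5 and 10.3 in CD104low, with no overlap and with CD104high replicate 1 well above the rest. Limma put the log2 fold change of MFNG at 1.72 (SE 0.43, adjusted p = 0.018), and without CD104high replicate 1 it was 1.43 (adjusted p = 0.0902). RFNG (radical fringe) averaged 1559 ± 35.6 in CD104high and 1500 ± 216 in CD104low, with a log2 fold change of 0.07 (SE 0.11, 95% interval −0.17 to 0.30, adjusted p = 0.694). Per kb of exon the 3 fringe genes summed to 921 ± 60.5 in CD104high and 705 ± 62.8 in CD104low, and LFNG made up 51.7% to 56.4% of that sum in CD104high and 39.7% to 47.2% in CD104low. Both measures gave an exact permutation p = 0.1, two-sided (0.129 adjusted). Both contain the LFNG values, so they are not results separate from the LFNG difference.

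RBPJ, which carries the signal to DNA and represses its targets in the absence of the receptor fragment, was among the more abundant of the 10 genes. It had 7486, 7991 and 7893 normalised reads in CD104high, against 7521, 8248 and 8915 in CD104low. The values overlapped, and the log2 fold change was −0.08 (SE 0.08, 95% interval −0.24 to 0.09, limma adjusted p = 0.503). Processed pseudogenes of RBPJ exist, so its single values carry some uncertainty from shared reads.

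Neither tested target passed. HES1, the best known repressor induced by Notch, whose window is printed above with its RBPJ letters, had 489, 643 and 434 normalised reads in CD104high, against 579, 674 and 462 in CD104low. Replicate 2 was the highest library and replicate 3 the lowest within both groups, and each CD104high library was below the CD104low library of the same number. The log2 fold change was −0.13 (SE 0.18, 95% interval −0.53 to 0.26, limma adjusted p = 0.628), and with the replicate number as a block the adjusted p was 0.332.

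HES4, a paralog of HES1 with the same letters in its printed window, had 631, 735 and 813 normalised reads in CD104high, against 696, 604 and 449 in CD104low. Replicate 3 was the highest library within CD104high and the lowest within CD104low. The log2 fold change was 0.33 (SE 0.17, 95% interval −0.04 to 0.70, limma adjusted p = 0.174). It was 0.07 without both libraries numbered 3 (adjusted p = 0.77) and 0.02 with the length and GC trend removed (adjusted p = 0.919). The longest annotated HES4 transcript has a GC content of 73.9%, the highest of the 10 genes. The part of GC content in the HES4 values was not tested.

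HEY1, a further target family member, was near the lower limit of the data. Its values stood for 6, 6 and 4 reads in CD104high, against 34, 16 and 6 reads in CD104low. The group ranges did not overlap, but CD104high replicates 1 and 2 and CD104low replicate 3 had the same number of reads. HEY1 did not reach 10 normalised reads in 3 libraries and was not tested. Its difference on the log2(value + 1) scale was −1.35, and with no filter on low values the limma adjusted p was 0.121. In the authors' deposited table its log2 fold change was −1.78 with a p-value of 0.00536 and no adjusted p-value.

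The wider pathway was read from a list of 66 further genes, of which 59 were in the table and 58 were tested (DLL1, DLL3, DLK1, NOTCH4, HES5, DTX1 and TLE4 were not analysed here). Of these, 10 were higher, 5 lower and 43 did not pass, or 25.9% called where 23.4% of all tested genes were called in either direction. Their median log2 fold change was 0.0018. The share of the list that was called was thus near that of the table. Counts by role below rest on few genes each, 11 tested at most. Of all tested genes, 12.1% were called higher and 11.3% lower. In 5 of the 18 alternatives the count moved by more than 1.5 times, to 7 or 8 genes in 4 of them and to 23 in 1. Limma without the mean-variance trend ended the calls of MFNG, POFUT1, MIB2, KAT2A, KAT2B, SNW1, HDAC1 and DTX4 (adjusted p = 0.0514 to 0.109).

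**Figure D3:**
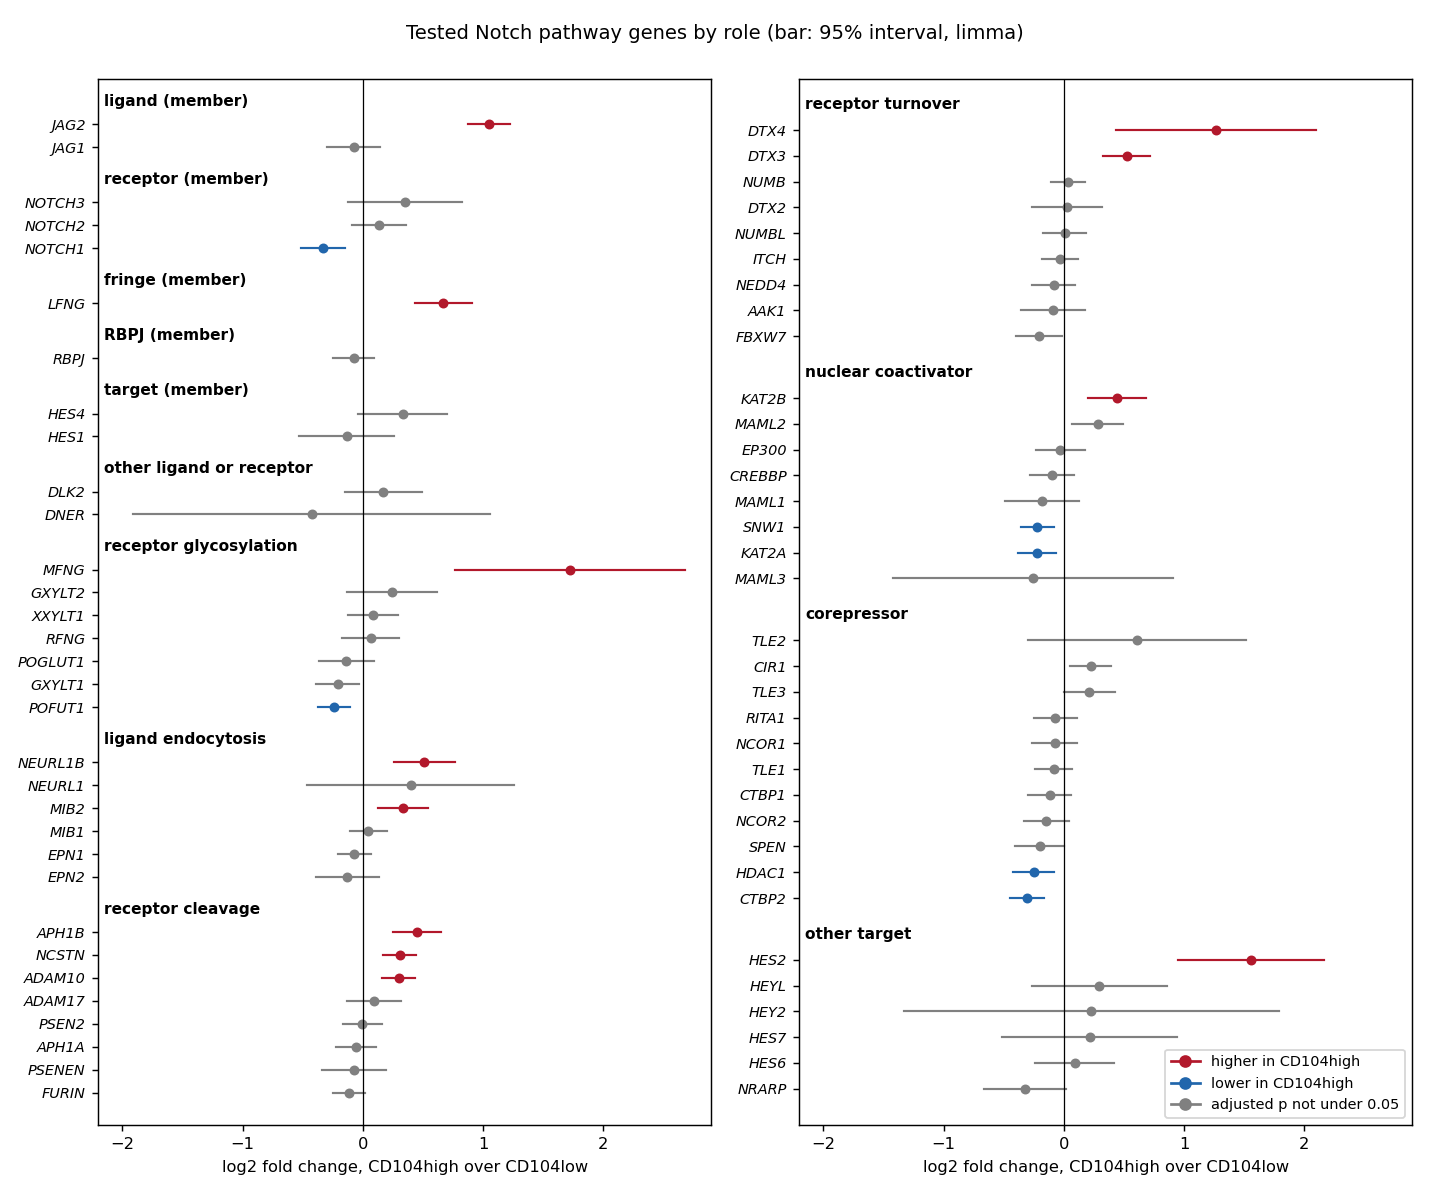
Log2 fold changes, CD104high over CD104low, of 66 tested Notch pathway genes by role, with 95% intervals from limma. Red points were called higher in CD104high, blue points lower, and grey points did not pass. Among the called genes, MFNG, HES2, DTX4, JAG2 and LFNG lie furthest to the right, and NOTCH1, CTBP2, HDAC1 and POFUT1 furthest to the left. Wide bars mark genes with few reads.

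Among enzymes that modify the receptor, 1 of 7 further genes was higher (MFNG) and 1 lower. The called share was 28.6%, beside 23.4% of all tested genes. POFUT1, which adds the fucose that fringe enzymes extend, had the highest mean of this role. It averaged 13269 ± 196 in CD104high and 15677 ± 355 in CD104low (SD, n = 3 each) and fell by 0.24 on the log2 scale (limma adjusted p = 0.0171). That call was lost when any 1 CD104high library or CD104low replicate 2 was left out (adjusted p = 0.0507 to 0.0631). Without both libraries numbered 3, POFUT1, KAT2A, SNW1 and HDAC1 missed the threshold (adjusted p = 0.0702 to 0.13).

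Of 6 genes that act in ligand endocytosis, 2 ubiquitin ligase genes were higher and none was lower. The other 4 did not pass, among them a further gene of the Mind bomb family and a further gene of the Neuralized family. That is 33.3% called, beside 23.4% of all tested genes. NEURL1B, of the Neuralized family, averaged 1373 ± 176 in CD104high and 959 ± 90.3 in CD104low (limma log2 fold change 0.51, SE 0.12, adjusted p = 0.0114). MIB2 averaged 3153 ± 219 in CD104high and 2507 ± 289 in CD104low (0.33, SE 0.09, adjusted p = 0.0301). The call of MIB2 ended without CD104high replicates 1 or 2 or CD104low replicates 2 or 3 (adjusted p = 0.0761 to 0.116), and its log2 fold change was 0.05 with the length and GC trend removed (adjusted p = 0.656). EPN1, an epsin and the most abundant of the 6, had −0.07 (adjusted p = 0.433).

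Receptor cleavage had 3 of 9 genes higher and none lower, or 33.3% called, where 23.4% of all tested genes were. ADAM10, the protease that cuts the ligand-bound receptor outside the membrane, had 24032, 25342 and 23887 normalised reads in CD104high, against 19577, 20138 and 19729 in CD104low (log2 fold change 0.30, SE 0.06, limma adjusted p = 0.00734). NCSTN, the nicastrin subunit of gamma-secretase, had 9589, 9653 and 9273 in CD104high, against 7396, 7972 and 7688 in CD104low (0.31, SE 0.06, adjusted p = 0.00686). APH1B, a scaffold subunit of the same protease, averaged 1389 in CD104high and 1017 in CD104low (0.45, SE 0.09, adjusted p = 0.00661). The groups did not overlap for any of the 3, as in 19.9% of all tested genes on the higher side. All 3 kept their call under all 18 alternatives. In the same role 1 further gene lay wholly lower in CD104high and did not pass. APH1A, the paralog of APH1B, had a log2 fold change of −0.05 (adjusted p = 0.646), and was named after its values were seen.

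In the nucleus, 1 of 8 coactivator genes was higher and 2 were lower (37.5% called, beside 23.4% of all tested genes). KAT2B, a histone acetyltransferase, averaged 2763 ± 345 in CD104high and 2028 ± 204 in CD104low (limma log2 fold change 0.44, adjusted p = 0.016), a call lost when replicate 2 of CD104high was left out (adjusted p = 0.056) or replicate 2 of CD104low (0.0572). Its paralog KAT2A averaged 4095 ± 129 in CD104high and 4784 ± 300 in CD104low and fell by 0.22 on the log2 scale (adjusted p = 0.0453). SNW1, a cofactor that also acts in splicing, averaged 3900 ± 7.99 in CD104high and 4546 ± 85.2 in CD104low and fell by 0.22 (adjusted p = 0.0278). KAT2A was no longer called when any CD104high library, or CD104low replicate 1 or 2, was left out (adjusted p = 0.0878 to 0.148). SNW1 was no longer called when any CD104high library, or CD104low replicate 2 or 3, was left out (adjusted p = 0.0612 to 0.0839). KAT2A also missed the threshold with values rescaled to the total (adjusted p = 0.0523), and SNW1 with the length and GC trend removed (adjusted p = 0.055). CREBBP, the most abundant coactivator gene, had −0.10 (adjusted p = 0.416), and −0.18 with the length and GC trend removed (adjusted p = 0.0347).

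Of 11 tested corepressor genes, 2 were lower and none was higher (18.2% called, beside 23.4% of all tested genes). CTBP2 averaged 4700 ± 117 in CD104high and 5802 ± 218 in CD104low, and fell by 0.30 on the log2 scale (SE 0.06, limma adjusted p = 0.00843), a call that held under all 18 alternatives. HDAC1, a histone deacetylase, averaged 7151 ± 468 in CD104high and 8505 ± 597 in CD104low and fell by 0.25 (adjusted p = 0.0412). That call was lost when any CD104high library, or CD104low replicate 1 or 2, was left out (adjusted p = 0.0734 to 0.141), and with the length and GC trend removed (adjusted p = 0.0606). NCOR1, the most abundant of the role, had −0.08 (adjusted p = 0.546).

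Among genes of receptor turnover, 2 of 9 were higher and none lower (22.2% called, beside 23.4% of all tested genes). DTX3 and DTX4, the genes called, belong to the Deltex family of ubiquitin ligases, of which DTX2 was also tested and had a log2 fold change of 0.03 (limma adjusted p = 0.901), and was named after its values were seen. DTX3 had 1407, 1304 and 1324 normalised reads in CD104high, against 931, 888 and 989 in CD104low (log2 fold change 0.52, SE 0.09, limma adjusted p = 0.00294, called under all 18 alternatives). DTX4 was low, at 77.6 ± 7.15 in CD104high and 35.2 ± 20.7 in CD104low (1.26, SE 0.37, adjusted p = 0.035). The DTX4 call was lost when any CD104high library, or CD104low replicate 1 or 2, was left out (adjusted p = 0.074 to 0.118). It was also lost in edgeR with TMM (adjusted p = 0.0527) and in edgeR with DESeq2 size factors (adjusted p = 0.0529). ITCH, the most abundant of the role, had −0.03 (adjusted p = 0.758).

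Of 6 further genes of the HES and HEY families and NRARP, 1 was higher (16.7% called, beside 23.4% of all tested genes). HES2 had 77.1, 99.3 and 101 normalised reads in CD104high, against 38.8, 23.6 and 30.9 in CD104low (log2 fold change 1.56, SE 0.27, limma adjusted p = 0.00355), and was called under all 18 alternatives. It lay far below HES4 in level per length, at 17.1 against 650 normalised reads per kb in CD104high and 5.75 against 521 in CD104low. NRARP, a target that feeds back on the receptor complex, had 147, 173 and 175 in CD104high, against 204, 204 and 211 in CD104low. These values did not overlap, as in 21.3% of all tested genes on the lower side, but did not pass (−0.32, SE 0.15, adjusted p = 0.157), and NRARP was named after its values were seen. HES6, the most abundant of the role, had 0.09 (adjusted p = 0.7). Among other ligands DLK2 was the most abundant, with 0.17 (adjusted p = 0.429), and DLL4 was at 12 normalised reads or fewer in every library and was not tested.

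The genes whose pattern over the 6 libraries was closest to that of JAG2 were CD74, MELTF and PCSK4, by the root-mean-square distance between log2 values centred on each gene's own mean (0.04, 0.05 and 0.06, against a median of 0.55 over all tested genes). CD74, the invariant chain of class II antigen presentation, had 6394, 6238 and 5731 normalised reads in CD104high, against 2920, 3091 and 3065 in CD104low. MELTF, a membrane transferrin family gene, averaged 12873 in CD104high and 6599 in CD104low, and PCSK4, a proprotein convertase gene, 411 in CD104high and 205 in CD104low. The distance was computed over the libraries that define the groups, and so favours genes with the same fold change.

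**Figure D4:**
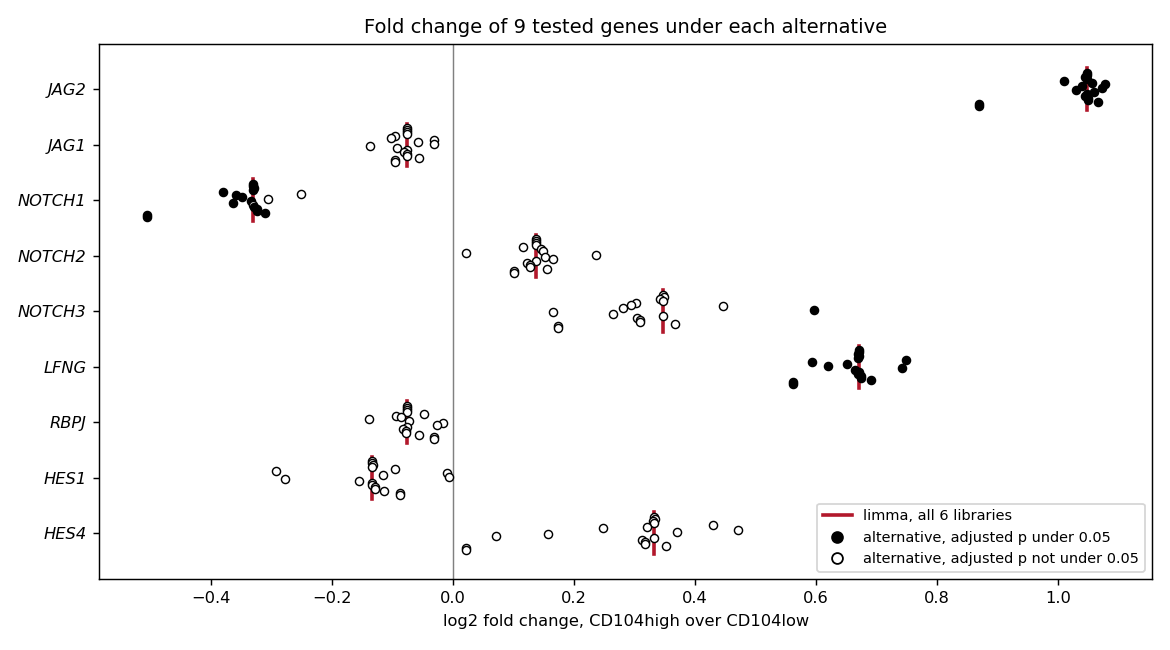
Log2 fold change, CD104high over CD104low, of the 9 tested Notch genes in limma with all 6 libraries (red line) and under each of the 18 alternatives (points, filled where the adjusted p was under 0.05). JAG2 and LFNG are filled throughout, NOTCH1 has 3 open points, and NOTCH3 has 1 filled point at 0.60.

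The authors' deposited table gave the same 3 genes an adjusted p under 0.05. Its log2 fold changes were 1.05 for JAG2 (adjusted p = 1.31e-10), 0.67 for LFNG (adjusted p = 1.13e-08) and −0.33 for NOTCH1 (adjusted p = 0.000433), and its adjusted p-values for JAG1, NOTCH2, NOTCH3, RBPJ, HES1 and HES4 were between 0.348 and 0.703.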

How the data were processed

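Total RNA of 6 sorted samples was sequenced. The submitters' processing notes name DESeq2 1.30.1, featureCounts 1.5.0, STAR 2.4.0 and FastQC, and as builds GRCh38.p13 and hg38, and give no role or order. Whether counting used strand is not stated there, so a gene and an antisense partner cannot be told apart. The unit of the per-library values is signal: the values that the authors deposited are reads per gene over a size factor for each library, between 0.971 and 1.03 as recovered here. The authors also deposited log2 fold changes with standard errors, a test statistic (score) and p-values, of which 1193 adjusted ones are empty. No value is 0.

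Values were tested in R 4.3.3 by limma 3.58.1, its mean-variance trend switched on, on the log2(value + 1) scale. The pseudocount of 1 understates changes of low genes. The filter kept 14343 genes that reached 10 in 3 or more of the 6 libraries and removed 681. Whole reads were recovered from the size of 1 read per library (over 99.99% of values within 0.1 of a whole number). In CD104high replicate 2 that size is 0.993, close to 1, so count tests (edgeR 4.0.16, DESeq2 1.42.0) serve only as alternatives. The fit was tested on simulated data. The number of libraries limits the precision, and p-values measure the spread between samples named biological replicates, with no statement on separate cultures.

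The genes and lists were chosen with earlier results of these data known. Text names the 10 genes, called genes of the wider list and the most abundant gene of each role, ITGB4, CD44 and KMT2C, and the 3 genes nearest in pattern to the member with the smallest p. Levels per kb used the merged exon length of GENCODE release 29, which may differ from the annotation counted on. Length and GC content were matched for 99.8% of tested genes. Same-numbered libraries deviated together, with correlations across genes of 0.17, 0.32 and 0.48 for numbers 1 to 3. The labels state no shared culture or sort. The main fit and the permutation tests did not use the numbers as pairs, so their p-values leave this out. Blocking on the replicate number was an alternative beside 17 others: no filter, pseudocounts of 0.1 and 5, each library left out, both libraries numbered 3 left out, limma without the trend, edgeR with TMM or DESeq2 size factors, DESeq2, total scaling, and removal of the trend with length and GC content alone or with the block. Values of 1 gene of the wider list, which is included in its counts, are not reported here.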

Additional observations from a re-analysis of the deposited data

How the results depend on the processing

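The count of called Notch genes was 2 or 3 of 9 in each of 18 alternatives, and JAG2 and LFNG were called in all of them. The count stood at 3 without CD104low replicate 2, where NOTCH1 was lost and NOTCH3 gained. With the replicate number as a block, JAG2 had an adjusted p of 3.19e-05, LFNG 0.000258 and NOTCH1 0.0111, and the block changed no call among the 9 tested Notch genes, the 15 called pathway genes and the most abundant gene of each role. HEY1, removed by the filter, was not fitted with the block, and block values of RFNG, APH1A, DTX2 and NRARP are not given here. NOTCH1 had an adjusted p of 0.0608 at −0.33 in limma without the trend, and the cause was not tested. With 1 library left out, log2 fold changes ran from 1.01 to 1.08 for JAG2, 0.59 to 0.75 for LFNG, −0.38 to −0.25 for NOTCH1, 0.17 to 0.60 for NOTCH3 and −1.93 to −0.81 for HEY1, which 11 alternatives could give.

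Across the table, 3355 genes were called, and 1816 to 3313 with 1 library left out (lowest without CD104high replicate 1), where fewer samples entered. The replicate block alone called 4706. Limma without the trend called 2173, and 5229 were called once the length and GC trend was removed with the block. Of the 58 further pathway genes, 15 were called, 8 to 14 with 1 library left out (8 without CD104high replicate 1, CD104high replicate 2 or CD104low replicate 2), 7 in limma without the trend, 19 with the replicate number as a block (13 higher and 6 lower) and 23 with the block and the trend removed (11 higher and 12 lower, against 10 and 5). Without both libraries numbered 3, 11 were higher and 1 lower. With 1 library left out, HES6 ran from −0.042 to 0.25 and ITCH from −0.081 to 0.0056. HES6 turned to −0.042 without CD104high replicate 3, −0.11 without both libraries numbered 3 and −0.12 with the length and GC trend removed, alone and with the block. ITCH turned to 0.0056 without CD104high replicate 1 and 0.016 with that trend removed, alone and with the block. HEY1 stood at only 4 to 34 reads, and the part of sequencing depth in this was not tested.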
